A study of Homo sapiens with 36 samples.

Results

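TET1 binding after CHD4 siRNA was compared with TET1 binding after control siRNA. The cells were HEK293T, an established line from human embryonic kidney that carries the SV40 large T antigen. The comparison takes in every peak of both deposited peak lists, 28450 peaks of the control siRNA (siNC) and 110 peaks of the CHD4 siRNA (siCHD4), out of 62066 peaks in the 6 lists of the series. A siNC peak was counted as kept where a siCHD4 peak shared 1 bp or more with it and as lost where none did. A siCHD4 peak with no siNC peak under it was counted as new. Each group comprised 3 libraries from pull-down with an antibody to TET1 and 3 libraries of input chromatin, from cells transfected with the siRNA of that name. The sources used here do not give the time after transfection or the level of CHD4 protein, so the knockdown itself was not checked. Each group has 1 peak list, whose name carries the 3 replicates together. The lists were taken as called on pooled replicates, so there is no spread between replicates to set a difference against, and no test was made. Intervals beside shares are exact Clopper-Pearson 95% intervals and cover counting error only.

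TET1 is a dioxygenase that oxidises 5-methylcytosine in DNA and is recruited mainly to CpG-rich regions. CHD4 is an ATPase of the NuRD complex, which joins nucleosome remodelling to histone deacetylation, and the series was set up around NuRD and genome architecture at CTCF sites. Centromeres and the regions beside them are built of long arrays of satellite repeats, where short reads often have many equally good positions. Mitochondrial DNA is present in many copies per cell and carries no nucleosomes.

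Nearly all TET1 sites of control cells had no counterpart in the CHD4 siRNA list. Of 28450 siNC peaks 48 were kept (0.169%, 95% interval 0.124 to 0.224) and 28402 were lost. Seen from the shorter list, 51 of 110 siCHD4 peaks lay over a siNC peak (46.4%, 36.8 to 56.1) and 59 were new. Some peaks hold several summits and stand in the list once per summit. Counted once each, the siCHD4 list held 77 intervals over 28922 bp, of which 37 lay over siNC. The siNC list held 28072 intervals, of which 38 were kept.

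Positions are given on hg19, counted from 1. The peaks were sorted into 4 classes: the mitochondrial genome, stretches near centromeres, chromosome arms, and unplaced or alternative sequences. For each chromosome, the widest gap between neighbouring siNC peaks with at least 4-fold enrichment, with 1 Mb added on either side, stood for the stretch near the centromere. On chromosomes 3, 13, 14, 15 and 22 that gap lay away from the centromere, and on chromosome Y it ran through most of the long arm. None of these chromosomes held a siCHD4 peak in its stretch. The siNC peaks of these stretches were still counted near centromeres. They enlarge the siNC numbers of that class and lower its kept share. Arms held 27932 siNC peaks (98.2% of the list, 98.0 to 98.3) and 12 siCHD4 peaks (10.9%, 5.77 to 18.3). The stretches near centromeres held 415 siNC peaks (1.46%, 1.32 to 1.60) and 66 siCHD4 peaks (95% interval 50.2 to 69.2%). The mitochondrial genome held 0 siNC peaks and 22 siCHD4 peaks (20.0%, 13.0 to 28.7). Unplaced and alternative sequences held 103 siNC peaks (0.362%) and 10 siCHD4 peaks (9.09%, 4.45 to 16.1).

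**Figure D1:**
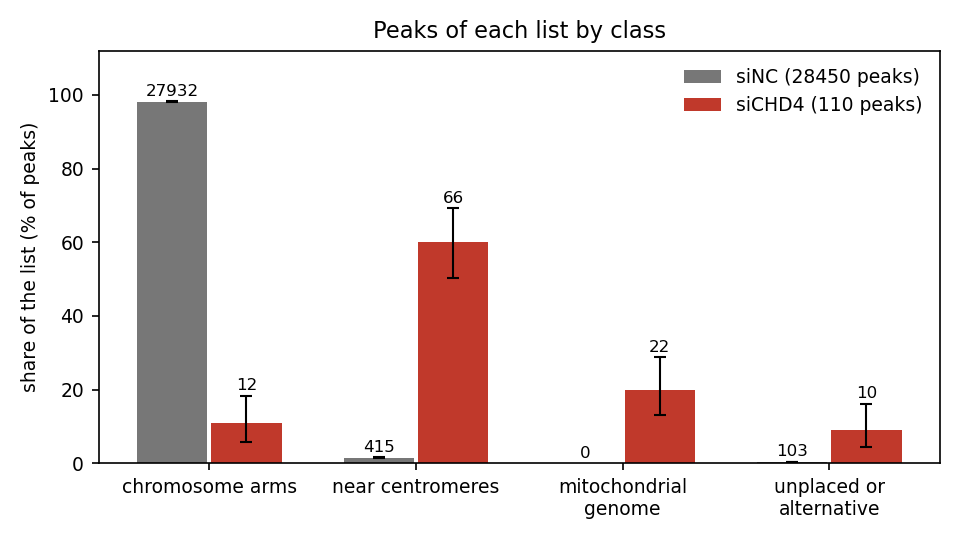
Share of each peak list in 4 classes (y axis, percent of the peaks of that list), with grey bars for siNC and red bars for siCHD4. Error bars are exact 95% intervals and the number over each bar counts its peaks. The siNC list lay almost wholly on the arms (27932 peaks), while 66 of 110 siCHD4 peaks lay near centromeres and 22 on the mitochondrial genome.

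The classes differed in how many control sites were kept. On the arms 5 of 27932 siNC peaks were kept (0.0179%, 0.00581 to 0.0418). Near centromeres 39 of 415 were kept (9.40%, 6.77 to 12.6), and on unplaced or alternative sequences 4 of 103 (3.88%, 1.07 to 9.65). Arms thus gave 27927 of the 28402 lost peaks and 5 of the 48 kept ones. The lost sites had a median fold enrichment of 6.74 in siNC, and the kept sites had a median of 1.39. Fold enrichment is the authors' own value, with 1 added to the pull-down reads at the summit and to the local control reads before the division, and it belongs to the list in which it stands. On the arms the order of the medians was the opposite, with 10.8 for the 5 kept peaks and 6.75 for the lost ones.

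Kept and lost sites also differed in the control background, the number of reads expected at the summit from the control. This background and the pull-down pileup were recovered from each peak's fold and −log10 p-value, for 28449 of 28450 siNC peaks and 109 of 110 siCHD4 peaks. In all, 53 siNC peaks had a background of 100 reads or more, and 41 of them were kept (77.4%, 63.8 to 87.7). Of the 28396 siNC peaks with a lower background, 6 were kept (0.0211%, 0.00775 to 0.0460). The single siNC peak without a recovered background, near the centromere of chromosome 19, was kept as well. The split at 100 reads was chosen after the values were seen.

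The same split ran through the stretches near centromeres. There 48 siNC peaks had a background of 100 reads or more, with a median fold of 1.37, and 37 of them were kept (77.1%, 62.7 to 88.0). The other 366 had a median fold of 6.58, and 1 of them was kept (0.273%, 0.00692 to 1.51). Control sites of low background were thus nearly all lost in these stretches, as on the arms. The 366 include peaks of the stretches that lay away from a centromere. In the siCHD4 list 93 of 109 peaks had a background of 100 reads or more, with a median fold of 1.40.

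**Figure D2:**
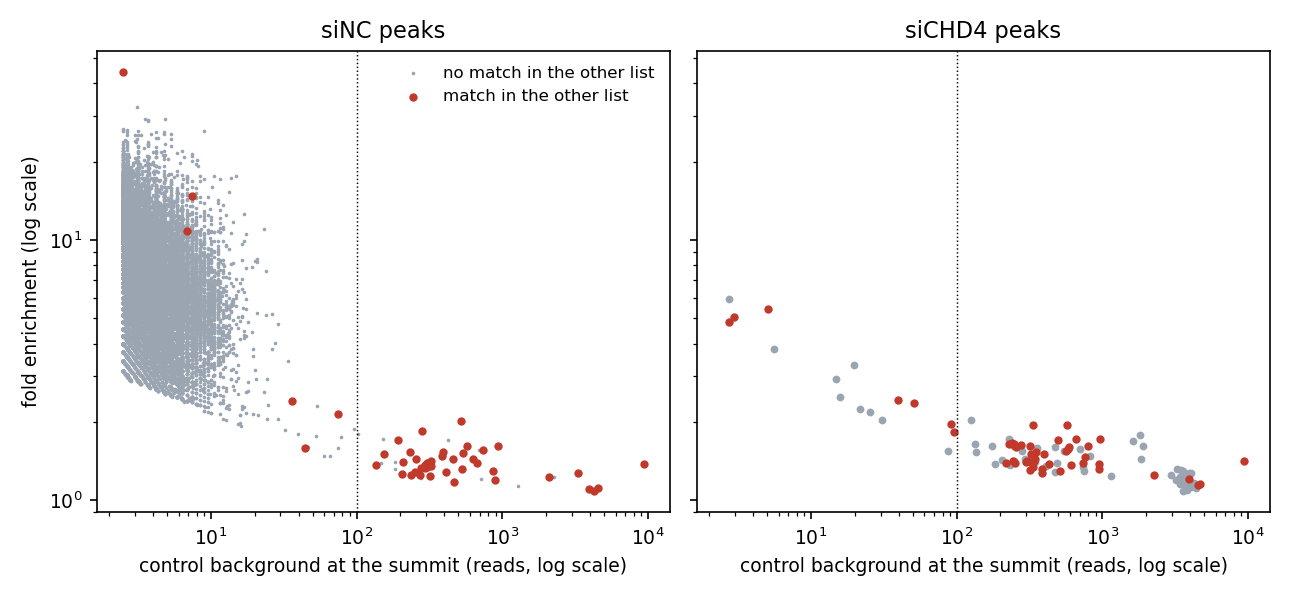
Control background at the summit in reads (x axis, log scale) against fold enrichment in the peak's own list (y axis, log scale), for siNC peaks on the left and siCHD4 peaks on the right. Red points have a match in the other list, grey points have none, the dotted line marks 100 reads, and the 1 peak per list without a recovered background is not drawn. The 28396 siNC peaks left of the line include 6 red points, and the 53 right of it include 41.

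The weakest peaks of the lists differed too. The lowest −log10 p-value was 6.31 in siCHD4 and 3.76 in siNC. The lowest −log10 q-values lay closer, at 1.60 in siCHD4 and 1.30 in siNC. At the lowest siCHD4 background, 2.72 reads, a pileup of 14 reads (4.04-fold) reaches a −log10 p-value of 6.31. At the median background of siCHD4 arm peaks, 23.4 reads, 51 reads (2.13-fold) are needed. At the median siCHD4 background near centromeres, 388 reads, 488 reads (1.26-fold) are needed, and at the mitochondrial median of 3730 reads, 4033 (1.08-fold). The lowest siNC background was 2.50 reads. Lost arm peaks had a median pileup of 33 reads over a median background of 3.70 in siNC. Of these, 26864 of 27927 (96.2%) reached the 14 reads needed at the lowest siCHD4 background. That background, 2.72 reads, lies under the median background of the lost arm peaks in siNC, and 23.4 reads lies well over it. The reads needed at each lost peak's own background were not computed, so these limits do not show which lost sites could have been called. Among the 26359 siNC peaks that reach the siCHD4 value of 6.31, a limit chosen after the values were seen, 40 were kept. The part of depth or of the calling threshold in the loss was not tested, and read totals per library were not analysed here.

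Among the control sites lost were 9 of the 10 of highest fold. The strongest lost peak lay on chromosome 17 at 41837676 to 41838177, with 133 reads over a background of 3.12 (32.5-fold). On chromosome 7, the peak at 150869517 to 150869997 had 132 reads over 3.55 (29.2-fold). Chromosome 16 held 3 of the 10 highest lost peaks. They lay at 90182560 to 90183025 (169 reads over 4.84, 29.1-fold), at 60818 to 61233 (135 reads, 29.0-fold) and at 4303989 to 4304446 (92 reads, 26.6-fold). The lost peak on chromosome 19 at 50604151 to 50604620 had the largest pileup of these, 262 reads over 8.98 (26.4-fold), and the second-highest −log10 q-value of the whole siNC list, 269.7. A further peak on chromosome 17 spanned 17259320 to 17259822 (28.7-fold), and one on chromosome X spanned 153212675 to 153213167 (26.4-fold). The last pair were 26.3-fold (chromosome 7, 101151020 to 101151504) and 26.1-fold (chromosome 5, 133375131 to 133375676). Between 6-fold and 10-fold in siNC 0 of 12089 peaks were kept, between 4-fold and 6-fold 0 of 7576, between 10-fold and 20-fold 2 of 4992, and at 20-fold or more 1 of 126. Below 2-fold 42 of 66 were kept.

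The 5 arm sites that were kept fell into 2 kinds. At 3 of them both lists showed a low background. The strongest siNC peak of all, on chromosome 17 at 43212531 to 43213330, had 154 reads over a background of 2.50 in siNC (44.3-fold). The siCHD4 peak inside it, at 43212686 to 43212880, had 17 reads over 2.72 (4.84-fold). On chromosome 12 the siNC peak at 58299079 to 58299454 had 123 reads over 7.39 (14.8-fold), and the siCHD4 peak at 58299202 to 58299389 had 19 over 2.96 (5.05-fold). On chromosome 14 the siNC peak at 50053411 to 50054003 had 84 reads over 6.87 (10.8-fold), and the siCHD4 peak at 50053655 to 50053843 had 32 over 5.07 (5.44-fold). At all 3 sites the siCHD4 interval was the narrower one, with 188 to 195 bp against 376 to 800 bp, and the summits lay 2 to 10 bp apart. These siCHD4 widths lie at the low end of their list, whose minimum was 188 bp, against 203 bp in siNC.

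The other 2 kept arm sites had a higher background and much the same values in each list. On chromosome 19, the siNC peak at 7515548 to 7515916 had 88 reads over 35.9 (2.41-fold) and the siCHD4 peak at 7515625 to 7515846 had 98 over 39.6 (2.44-fold). On chromosome 7, close to the end of the short arm, the siNC peak at 24101 to 24378 had 160 reads over 73.9 (2.15-fold). The siCHD4 peak there, at 24109 to 24313, had 180 reads over 90.8 (1.97-fold).

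New arm peaks numbered 7, in 5 intervals. The siCHD4 peak of highest fold, on chromosome 13 at 25861912 to 25862117 (21 reads over 2.72, 5.92-fold), was new by the 1 bp rule but began 94 bp past a siNC peak. That siNC peak, at 25861566 to 25861818, was 7.85-fold, and the summits lay 312 bp apart. On chromosome 1 a pair of summits in the interval 566156 to 566677 had 1234 reads over 829 (1.49-fold) and 762 over 473 (1.61-fold). The reference near that position is known for a long nuclear copy of mitochondrial DNA, and where the reads came from was not tested. Farther along chromosome 1, the interval 236877153 to 236877651 held summits of 45 reads over 14.8 (2.92-fold) and 41 over 15.9 (2.49-fold). The interval on chromosome 4 at 68265531 to 68265820 had 842 reads over 544 (1.55-fold), and that on chromosome 6 at 157731695 to 157731913 had 64 over 30.9 (2.04-fold). Arm peaks of siCHD4 therefore ranged from 17 to 1234 reads, and 3 of the 12 had a background of 100 reads or more.

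Near centromeres the siCHD4 peaks stood in groups of 1 to 15 peaks that spanned 202 to 68855 bp. Joined where they lay up to 100 kb apart, the 66 peaks formed 19 groups on 13 chromosomes, which spanned 189.9 kb in all. In 14 groups at least 1 siNC peak was kept. The groups were drawn from the siCHD4 peaks, so that siNC peaks inside them (42, of which 39 kept) overlap siCHD4 largely by construction, and the numbers are a description. The largest group, on chromosome 2 from 92290609 to 92325258, held 15 siCHD4 peaks in 9 intervals, with folds of 1.24 to 1.70 over backgrounds of 248 to 1627 reads. It covered 11 siNC peaks, of which 10 were kept, with siNC folds of 1.18 to 1.45. On chromosome 11, from 51580173 to 51590588, all 6 siCHD4 peaks lay over siNC and all 6 siNC peaks were kept (1.39-fold to 2.02-fold in siNC and 1.42-fold to 1.96-fold in siCHD4).

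Chromosome 19 held the siCHD4 peak of highest −log10 q-value, 543, at 27731956 to 27732324 (2.01-fold). The siNC peak there, at 27731953 to 27732324, also had the highest −log10 q-value of its list, 376 (1.81-fold). On chromosome 1 the siCHD4 peak at 121485059 to 121485364 had the largest recovered pileup of the list, 13199 reads over 9337 (1.41-fold), against 12868 over 9361 (1.37-fold) for the siNC peak at 121484971 to 121485344. Chromosome 18, from 18518908 to 18520252, held 4 siCHD4 peaks, and all of its 3 siNC peaks in that window were kept. The widest siCHD4 interval near a centromere, on chromosome 7 at 61968795 to 61969635 (841 bp), lay over 2 separate siNC intervals, at 61968825 to 61969048 and 61969254 to 61969634. The next widest lay on chromosome 2 at 92312573 to 92313397 (825 bp, 4 summits) and at 92290609 to 92291140 (532 bp).

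Summits of overlapping peaks lay close together. Short distances are favoured by construction, since only overlapping peaks were taken and the nearest summit was chosen, so the distances are a description. For the 51 siCHD4 peaks over siNC the nearest siNC summit lay at a median distance of 8 bp, within 50 bp for 44 of them and within 10 bp for 31. Near centromeres these numbers were 36 and 27 of 43. The 43 had median folds of 1.44 in siCHD4 and 1.37 at the nearest siNC summits, over median backgrounds of 394 and 356 reads.

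New sites near centromeres numbered 23, in 18 intervals. They included 3 of the 5 siCHD4 peaks of highest −log10 q-value. These lay on chromosome 7 at 61970306 to 61970500 (3242 reads over 1819, 1.78-fold), chromosome 2 at 92325060 to 92325258 (2749 over 1627, 1.69-fold) and chromosome 10 at 42395974 to 42396167 (3101 over 1918, 1.62-fold). Each was between 194 and 199 bp wide, and the nearest siNC peak lay 672, 463 and 555 bp away. New peaks of higher fold had a low background, as on chromosome 16 at 35253733 to 35253936 (24 reads over 5.53, 3.83-fold) and chromosome 7 at 61975624 to 61975933 (68 over 19.8, 3.32-fold). The former stood 1794468 bp from the nearest siNC peak, the largest such gap. On chromosome 1 a kept site of higher fold lay at 121351933 to 121352297, with 122 reads over 51.2 (2.36-fold), where siNC had 71 over 44.4 (1.59-fold). On chromosome 4 a new peak at 49151266 to 49151467 had 50 reads over 21.7, and on chromosome 7 a further one at 61976321 to 61976601 was 2.19-fold. Of the 37 new peaks outside the mitochondrial genome 8 lay within 1 kb of a siNC peak, 24 within 10 kb, and 4 more than 100 kb away.

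The mitochondrial genome carried 22 siCHD4 summits in 12 intervals that covered 7245 bp, and no siNC peak. All of these peaks were new, and their median fold, 1.18, was the lowest of the 4 classes. Folds ran from 1.08 to 1.33, over backgrounds of 2946 to 4388 reads and pileups of 3705 to 5194. The widest interval, from 623 to 3348 (2726 bp), held 8 summits of 1.14-fold to 1.31-fold. The next widest ran from 6504 to 7584 (1081 bp, 3 summits, up to 1.27-fold) and from 5788 to 6262 (475 bp, 3860 reads over 3228). The peak of highest fold, at 12088 to 12275 (4340 reads over 3274, 1.33-fold), was also the narrowest, with 188 bp. The 4 that followed in fold were summits of the wide intervals at 623 to 3348 and 6504 to 7584. The weakest peak, at 4270 to 4581, had 3882 reads over 3585 (1.08-fold). siCHD3, siMBD2 and siMBD3 held 31, 30 and 29 peaks on the mitochondrial genome, over 8408, 8351 and 8269 bp, and siCHD5 held 0.

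Unplaced sequences held 10 siCHD4 peaks, all on 2 of the 33 sequences that carried siNC peaks. On chr9_gl000199_random the siCHD4 peaks at 51148 to 51391 (1.84-fold) and 136925 to 137250 (1.66-fold) lay over siNC, and that at 91524 to 91911 (1.62-fold) was new. On chrUn_gl000226 there were 7 siCHD4 peaks of 1.31-fold to 1.72-fold between 3195 and 14812. Only the peak at 7287 to 7538 lay over siNC, which had 1 peak on that sequence. The 2 sequences had 5 siNC peaks, of which 4 were kept. The alternative haplotypes of chromosomes 4, 6 and 17 had 1 to 10 siNC peaks each, none of them kept. At the share of 0.169% over the whole siNC list, numbers this small would rarely include a kept peak.

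Widths also differed between the lists and classes. Lost siNC intervals had a median width of 298 bp (quartiles 251 and 356) and kept ones 347 bp (265.5 and 418). siCHD4 intervals over siNC had a median of 335 bp and new ones 304 bp. On the arms the 5 siCHD4 intervals over siNC were 188 to 222 bp wide, narrower than each of the 5 kept siNC intervals (278 to 800 bp). The narrowest interval of the whole list was 188 bp in siCHD4 and 203 bp in siNC. Near centromeres siCHD4 intervals over siNC had a median of 366 bp and new ones 227.5 bp. Several summits stood in 22 of 77 siCHD4 intervals, in 10 of 38 kept siNC intervals and in 357 of 28034 lost ones.

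**Figure D3:**
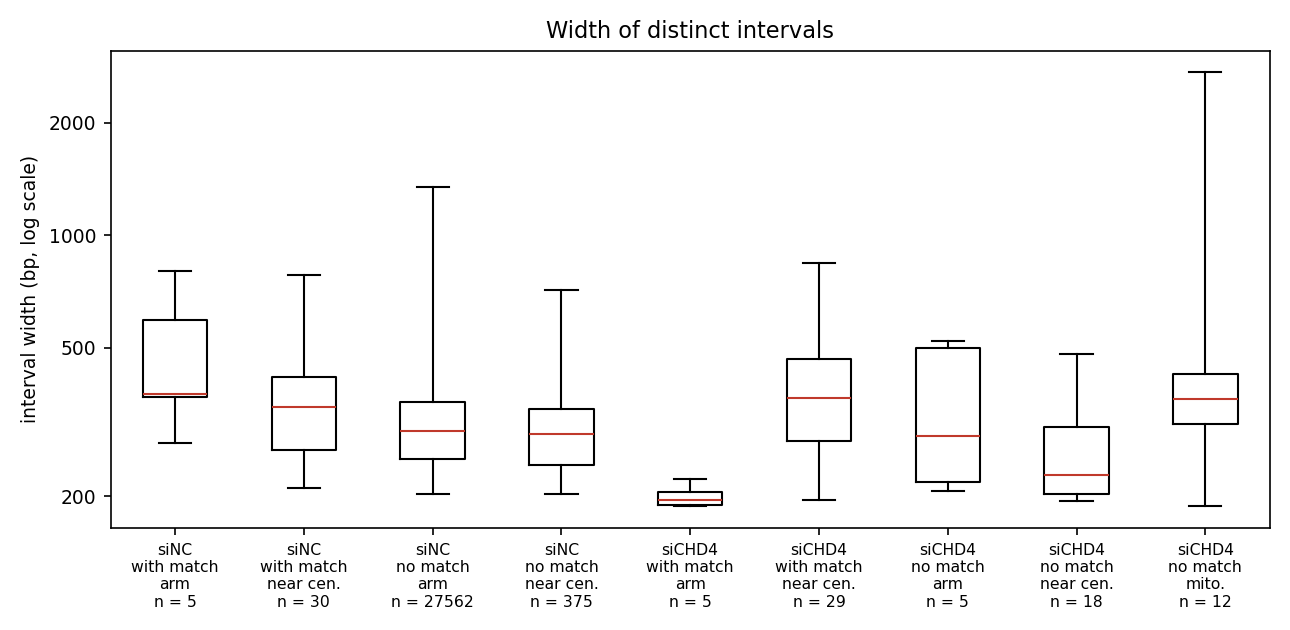
Width of distinct intervals in bp (y axis, log scale) by list, match and class. Boxes show quartiles, the red line the median and whiskers the full range, with the number of intervals under each box. Unplaced sequences are not drawn. The siCHD4 intervals over siNC on the arms had the lowest median (195 bp), and the widest interval lay on the mitochondrial genome (2726 bp).

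Across chromosomes, the loss left no chromosome with more than 1% of its control sites. The largest kept share was on chromosome 18, where 3 of 473 siNC peaks were kept (0.634%), followed by chromosome 2 with 10 of 2053 (0.487%) and chromosome 19 with 5 of 1059 (0.472%). Over the whole siNC list the share was 0.169%. These shares rest on few peaks, all near centromeres except the arm peak of chromosome 19 named above. Chromosome 1 had the most siNC peaks, 2860, and kept 3 of them. Kept peaks lay on 13 chromosomes. The other 11 chromosomes had 10472 siNC peaks and kept none. On chromosomes 3, 5, 15, 20, 21, 22 and Y, which had 5759 siNC peaks, the siCHD4 list held no peak at all. Chromosomes 4, 6, 13 and 16 had 2, 1, 1 and 3 siCHD4 peaks, all of them new. Among chromosomes other than the mitochondrial genome, chromosome 8 had the most new peaks, 5 of 6, and the interval at 43094790 to 43095234 gave 3 of these.

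**Figure D4:**
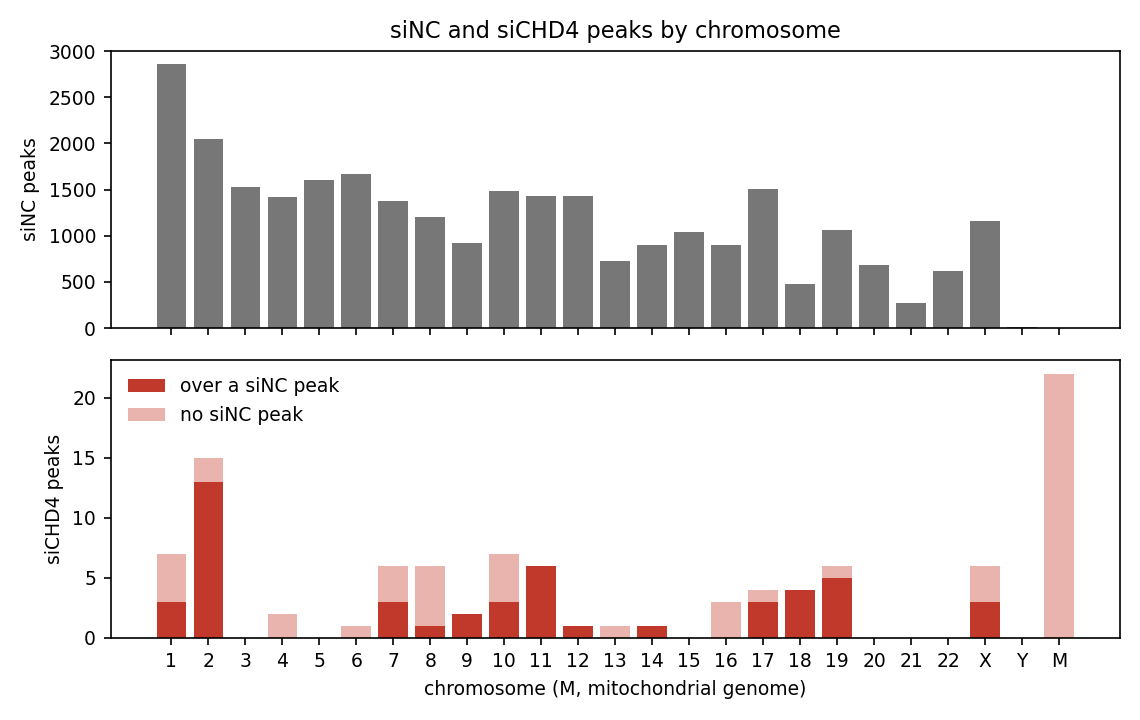
Number of siNC peaks (upper y axis) and of siCHD4 peaks (lower y axis) per chromosome, with M for the mitochondrial genome. In the lower panel dark red marks siCHD4 peaks over a siNC peak and light red marks new ones. Chromosome 2 held the most nuclear siCHD4 peaks (15, of which 13 over siNC), and all 22 mitochondrial peaks were new.

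The other knockdown lists were set beside siCHD4 only for its place among them, since all were compared with the same siNC list. They overlapped 51 siNC peaks in siCHD3, 71 in siMBD2, 50 in siMBD3 and 24294 in siCHD5, against 48 in siCHD4. siCHD4 and siCHD3 had median control backgrounds of 431 and 379 reads, against 2.33 in siMBD2, 3.74 in siMBD3 and 4.10 in siCHD5. Peaks with a background of 100 reads or more were nearer in number. There were 93 in siCHD4, 113 in siCHD3, 85 in siMBD2, 83 in siMBD3 and 65 in siCHD5. The lists differed more in arm peaks, with 12 in siCHD4, 17 in siCHD3, 255 in siMBD2, 160 in siMBD3 and 32123 in siCHD5. The lists hold 140 peaks in siCHD3, 358 in siMBD2, 259 in siMBD3 and 32749 in siCHD5. Of the 37 new siCHD4 peaks outside the mitochondrial genome 24 had a peak in siCHD3, 16 in siMBD2, 14 in siMBD3 and 14 in siCHD5, and 9 were in no other list. Of the 22 mitochondrial ones 22, 21, 21 and 0 had one, in the same order. These 9 included the arm peak on chromosome 13 and the peak on chromosome 16 at 35253733, both named above. The siCHD4 peaks over siNC had a peak in each of the siCHD3, siMBD2, siMBD3 and siCHD5 lists more often than the 37 new ones did. The differences between knockdown lists were not tested.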

How the data were processed

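TET1 ChIP-seq of HEK293T cells was compared between CHD4 siRNA and control siRNA, each with 3 pull-down and 3 input libraries. Per the labels' protocols, fragments of 200 to 500 bp were selected, amplified over 18 PCR cycles and sequenced as paired ends of 100 bases. Per the submitters' processing notes, MACS2 2.1.2, Bowtie2 2.3.4, deepTools 3.5.0, SAMtools 1.9, FastQC 0.11.7 and bedtools 2.25.0 were used with hg19, in roles that are not stated. The sources used here give no caller settings, duplicate removal, handling of reads with several positions or filter on regions. Coordinates are hg19, counted from 1.

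The deposited files are peak lists with no header, 1 per siRNA. They hold, as deposited by the authors, a fold enrichment (ratio of pull-down to local control), a −log10 p-value, a −log10 q-value and a summit offset. In 28559 of the 28560 peaks the score, as deposited, equals the −log10 q-value multiplied by 10 and truncated.

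Overlaps, classes and medians were computed with Python 3.11.15, pandas 2.3.3, numpy 2.4.6 and scipy 1.17.1. Pileup and background were solved from fold, with a pseudocount of 1, and a Poisson −log10 p-value, to a tolerance of 0.02. The overlap count was run on simulated lists with planted overlaps. The recovery was run on values simulated with the same pseudocount and Poisson formula. Such runs check the code and not whether the deposited values follow that formula. Library depth was not analysed here, so precision rests on counts of peaks. With 1 pooled list per group no test was possible.

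Named regions are the 10 siCHD4 peaks of highest fold, all siCHD4 arm and unplaced peaks, kept siNC arm peaks, and the 10 strongest lost siNC peaks. Near centromeres and on the mitochondrial genome the 5 peaks of highest fold and the 3 widest were named. Peaks of highest −log10 q-value or pileup, the largest and complete groups near centromeres, the weakest mitochondrial peak and a chromosome 8 interval were added after their values were seen. Members, classes and lists were chosen with earlier results of these data known. The gene and promoter tables at hand are of another assembly, so genes, promoters and sequences were not analysed here.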

Additional observations from a re-analysis of the deposited data

How the results depend on the processing

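Of 33 alternatives 22 left the value within 1.5 times (or, for the medians, within the interval of the kept peaks' median). With a fold minimum of 4 in both lists 3 siNC peaks were kept and 3 of 4 siCHD4 peaks lay over siNC. With siNC limited to the 110 peaks of highest −log10 q-value 4 siCHD4 peaks lay over it. The 22 mitochondrial peaks came to 12 distinct intervals. Chosen after seeing the data, the counts on the arms were 5 siNC peaks kept and 5 siCHD4 peaks over siNC, and with backgrounds under 100 reads both were 6. The median siNC fold of kept minus lost peaks, −5.34, turned to 4.05 on the arms (5 kept) and to 7.58 at a fold minimum of 4 (3 kept), which both leave out the low-fold sites near centromeres by construction. For backgrounds under 100 reads, an alternative chosen after seeing the data, it was −0.129 (6 kept). A margin of 2 Mb, stretches drawn from siCHD5 peaks, and, chosen after seeing the data, stretches that may begin at the first base all left 66 siCHD4 peaks near centromeres and 12 on the arms, while siNC had 788, 390 and 369 near centromeres against 415. No paired analysis was possible because the lists pool the 3 replicates, and for the same reason no replicate could be left out.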
